A study of Caenorhabditis elegans with 32 samples.

Results

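The small RNA made against the genes of 10 Caenorhabditis elegans Argonaute proteins was examined: csr-1, hrde-1, wago-1, wago-4, nrde-3, prg-1, alg-3, alg-4, ergo-1 and alg-5. The genes were chosen by name, and each was found in the deposited 22G RNA table through its WBGene identifier in the WBcel235 annotation, which gave 10 of 46932 features. All 10 are protein-coding. The samples were whole worms labelled WT or hrde-1, from 4 generations (P0 to F3), each labelled normoxia or hypoxia. That made 16 groups with 2 libraries each. The labels give no allele for hrde-1 and no age at collection. L4 larvae spent 16 h at 0.1% oxygen and 20 °C and then went back to about 20% oxygen, per the labels. Every generation carries an oxygen label, so the exposure of F1 to F3 animals themselves could not be read from the labels.

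Argonautes are proteins that hold a small RNA and use it to find a matching transcript. In worms, RNA-dependent RNA polymerases copy target transcripts into short antisense RNA that begins with G, the 22G RNA, and worm-specific Argonautes then carry it. CSR-1 holds 22G RNA against genes expressed in the germline, WAGO-1 and WAGO-4 work in the germline cytoplasm, HRDE-1 acts in germline nuclei in heritable silencing, and NRDE-3 acts in somatic nuclei. PRG-1 is the Piwi protein that holds piRNA. ALG-3 and ALG-4 act with 26G RNA in sperm development, ERGO-1 acts with 26G RNA in oocytes and embryos, and ALG-5 is a germline Argonaute of the microRNA family. A count below is therefore small RNA made against an Argonaute's own transcript. It is not the level of that transcript or protein, and the hrde-1 value does not check the genotype.

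Depth was 438436 to 2578063 22G counts per library. The P0 WT normoxia libraries stood apart: 22G RNA made up 6.15% and 9.27% of the counts of the 4 deposited small RNA classes there, against 14.9% to 45.9% in the other 30 libraries. Replicates of F3 hrde-1 normoxia differed most, with a chi-square per degree of freedom of 38.35. It was lowest at 1.947 for F2 WT normoxia, where part of the deposited values are fractional, and 2.365 for P0 WT hypoxia. No source says that replicates were separate cultures, so p-values measure the spread between these libraries, which may be technical. Generations F1 to F3 are by name descendants of P0, and no source says how many founding lines there were. Comparisons pooled over generations may therefore count the same line more than once. In whole worms, fewer cells of a type and less small RNA per cell cannot be told apart.

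The 10 genes differed widely in how much 22G RNA was made against them. Levels are compared between genes as CPM (counts scaled to a common library total) per kb of annotated exon. The median over 32 libraries was 179.4 for prg-1, 122.8 for wago-4, 114.5 for hrde-1 and 85.24 for csr-1. These 4 genes formed an upper group. It was 20.68 for wago-1, 12.87 for alg-5 and 12.21 for ergo-1. It was 3.898 for nrde-3, 1.138 for alg-3 and 0.5697 for alg-4, the sperm pair being lowest.

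Among the 8 WT normoxia libraries the order was prg-1 (131.5 to 183.4 CPM per kb), hrde-1 (101.5 to 135.3), wago-4 (89.45 to 108.6) and csr-1 (41.48 to 61.17). Neighbours among the first 3 overlapped at the edges of their ranges, and csr-1 lay below all of them. Then came wago-1 (10.94 to 18.76), alg-5 (12.24 to 24.09) and ergo-1 (9.565 to 29.85), which could not be ordered. The gene nrde-3 (2.802 to 5.432) lay below these 3 and above alg-3 (0 to 2.45), whose range held that of alg-4 (0 to 0.9655). Against 9039 protein-coding genes tested, whose median was 13.14, prg-1 stood above 94.5%, hrde-1 above 92.7%, wago-4 above 91.6% and csr-1 above 84.5%. By the same measure wago-1, alg-5 and ergo-1 stood above 57.3%, 53.7% and 53.3%. The genes nrde-3, alg-3 and alg-4 stood above 21.7%, 8.54% and 3.86%.

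**Figure D1:**
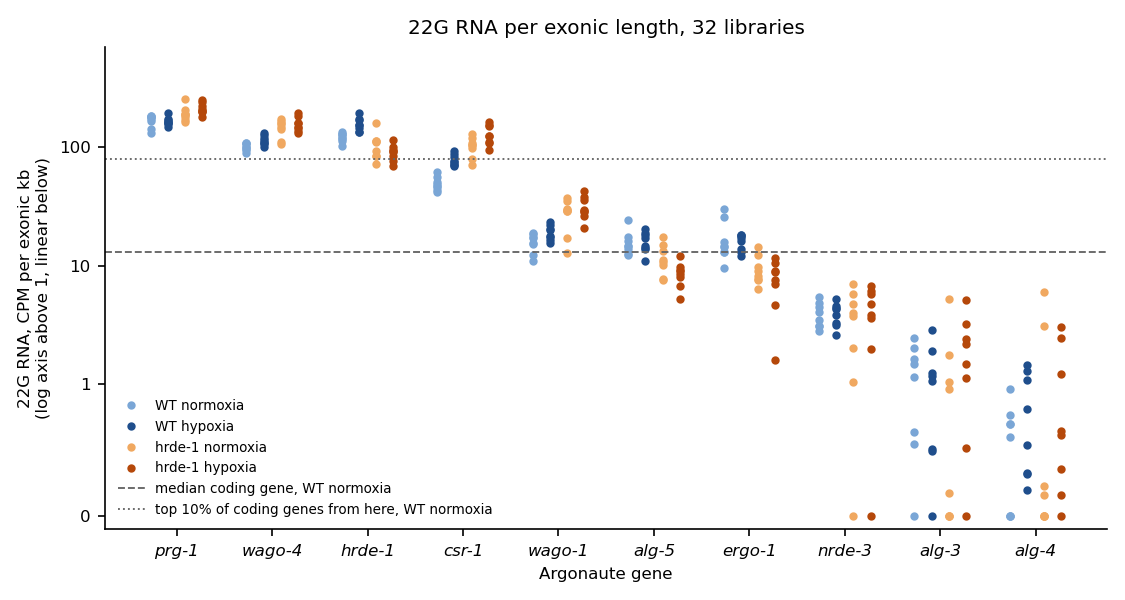
22G RNA against each Argonaute gene in CPM per exonic kb (log axis above 1, linear below), 1 point per library, coloured by genotype and oxygen label. The dashed line is the median protein-coding gene in WT normoxia (13.14) and the dotted line the level where the top 10% begin (79.49); prg-1, wago-4 and hrde-1 lie mostly above the dotted line, and alg-3 and alg-4 reach 0.

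Counts set the precision. The median count per library was 734 for prg-1, 658.5 for hrde-1, 581 for wago-4 and 433 for csr-1, and it was 6 for alg-3 and 2.5 for alg-4. The gene alg-3 had no count in 6 libraries, alg-4 in 8 and nrde-3 in 2, where 3 counts would correspond to 1.62 to 6.93 CPM. That limit covers counting error only. No direction is therefore given for alg-3 or alg-4.

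The loci are given in WBcel235, and the build used for counting was not given in the sources used here. The gene csr-1 (WBGene00017641) is on chromosome IV:7957267-7962157, plus strand, with 3668 exonic bases. Of these, 438 (11.9%) are shared with frpr-10, which had 0 to 3 counts in any library. The gene hrde-1 (WBGene00007624) is on chromosome III:4172337-4176159, minus strand. The gene wago-1 (WBGene00011061) is on chromosome I:7235384-7238792, wago-4 (WBGene00010263) on chromosome II:12919551-12923377, and nrde-3 (WBGene00019862) on chromosome X:372235-376900, all on the plus strand. None of hrde-1, wago-1, wago-4, nrde-3, alg-3 or alg-4 overlaps another gene's exons.

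The gene prg-1 (WBGene00004178) is on chromosome I:7585329-7588367, minus strand, and shares 12 bases with D2030.12. That neighbour, on the plus strand, had 0 to 117 counts in a library (median 19). The gene alg-3 (WBGene00011910) is on chromosome IV:11704246-11708264, plus strand, and alg-4 (WBGene00006449) on chromosome III:9887209-9891424, minus strand. The gene alg-5 (WBGene00011945) is on chromosome I:9989802-9993976, plus strand, with 230 exonic bases (7.41%) shared with cfi-1, T23D8.11 and T23D8.12, none of which had over 2 counts in a library. The gene ergo-1 (WBGene00019971) is on chromosome V:1008803-1018352, plus strand, and shares 17 bases with pei-2. That neighbour, on the minus strand, had 0 to 123 counts in a library (median 7).

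The first question was whether the oxygen label changed 22G RNA against these genes. In WT animals it did for csr-1, the Argonaute that holds 22G RNA against germline-expressed genes. At P0 csr-1 was at 152.1 and 170.1 CPM under normoxia and at 343.1 and 319.6 CPM under hypoxia. At F1 it was at 179.6 and 172.5 CPM under normoxia and at 305.7 and 253.3 CPM under hypoxia. Hypoxia libraries were the higher ones at both generations. At F2 normoxia gave 188 and 224.4 CPM and hypoxia 281.4 and 263.3 CPM. At F3 normoxia gave 159.2 and 205.7 CPM and hypoxia 260.6 and 275.4 CPM. The groups did not overlap in any generation, and over P0 to F3 the lowest of 8 hypoxia libraries (253.3 CPM) was above the highest of 8 normoxia libraries (224.4 CPM).

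Over the descendants F1 to F3, with generation as a term and 6 libraries against 6, csr-1 rose by a log2 fold change of 0.54 ± 0.10 (SE; edgeR quasi-likelihood test, adjusted p = 0.006093). It was 1 of 9 Argonaute genes tested to pass in that comparison, where 4.63% of all 8485 features passed and 1.38% passed as higher. The call held without any one of the 12 libraries and under all 7 other settings tried. Averaged over P0 to F3 in the fit of all 32 libraries, an average added after the values were seen, the change was 0.67 ± 0.12 (adjusted p = 0.0007883).

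In single generations csr-1 passed at P0 alone (1.04 ± 0.24, adjusted p = 0.02801), as 1 of 10 genes where 0.702% of features passed and 0.168% passed as higher. The P0 WT normoxia libraries held 99 and 82 csr-1 counts, against 623 and 568 under hypoxia. The call was lost without any one of the 4 libraries compared (adjusted p up to 0.4094), with a change of 0.99 to 1.14, and with DESeq2 size factors, with a change of 0.99. Changes of 0.67 ± 0.23 at F1, 0.40 ± 0.23 at F2 and 0.55 ± 0.23 at F3 did not pass on 2 libraries against 2. None of the 10 genes passed in edgeR at those 3 generations, where 0.168%, 0% and 0.346% of features did, while 2, 0 and 2 genes had an unadjusted p under 0.05.

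The gene hrde-1 encodes the nuclear Argonaute for which the mutants are labelled. In the reported fits of WT it was the other gene to pass under hypoxia, only as an average over P0 to F3. At P0 it was at 424.1 and 358.9 CPM under normoxia and at 549.1 and 549.2 CPM under hypoxia. At F1 it was at 396 and 454.7 CPM under normoxia and at 689.3 and 602.5 CPM under hypoxia. These 2 generations did not overlap. At F2 it was at 439.9 and 478.4 CPM against 473.7 and 509 CPM, which overlapped, and at F3 at 457.2 and 416.3 CPM against 472.7 and 607.7 CPM, which did not. The average over P0 to F3, also added after the values were seen, was 0.37 ± 0.10 (adjusted p = 0.04422). In that comparison 2 of 10 genes passed where 1.65% of features did, 0.455% as higher. The hrde-1 average passed without 1 of the 16 libraries in turn in a single case, F3 WT hypoxia replicate 1. The average was also lost with DESeq2 size factors and without the filter on low counts. Over F1 to F3 the hrde-1 change was 0.33 ± 0.09 with an adjusted p of 0.05499.

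Of the other genes in WT, wago-4 changed by 0.20 ± 0.09 over F1 to F3 (adjusted p = 0.2106) and wago-1 by 0.27 ± 0.15 (adjusted p = 0.3106). The wago-4 hypoxia libraries lay above the normoxia ones at P0, F1 and F2, and the labels overlapped at F3. For prg-1 the change was -0.06 ± 0.07, with a 95% interval from -0.20 to 0.08. For ergo-1 it was 0.19 ± 0.15, for alg-5 0.02 ± 0.19 and for nrde-3 0.02 ± 0.28, none past the threshold. The gene alg-4 was too low to be tested in that comparison. At F3 it had no count in either WT normoxia library and 11 and 6 counts under hypoxia, and it did not pass (adjusted p = 0.283).

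**Figure D2:**
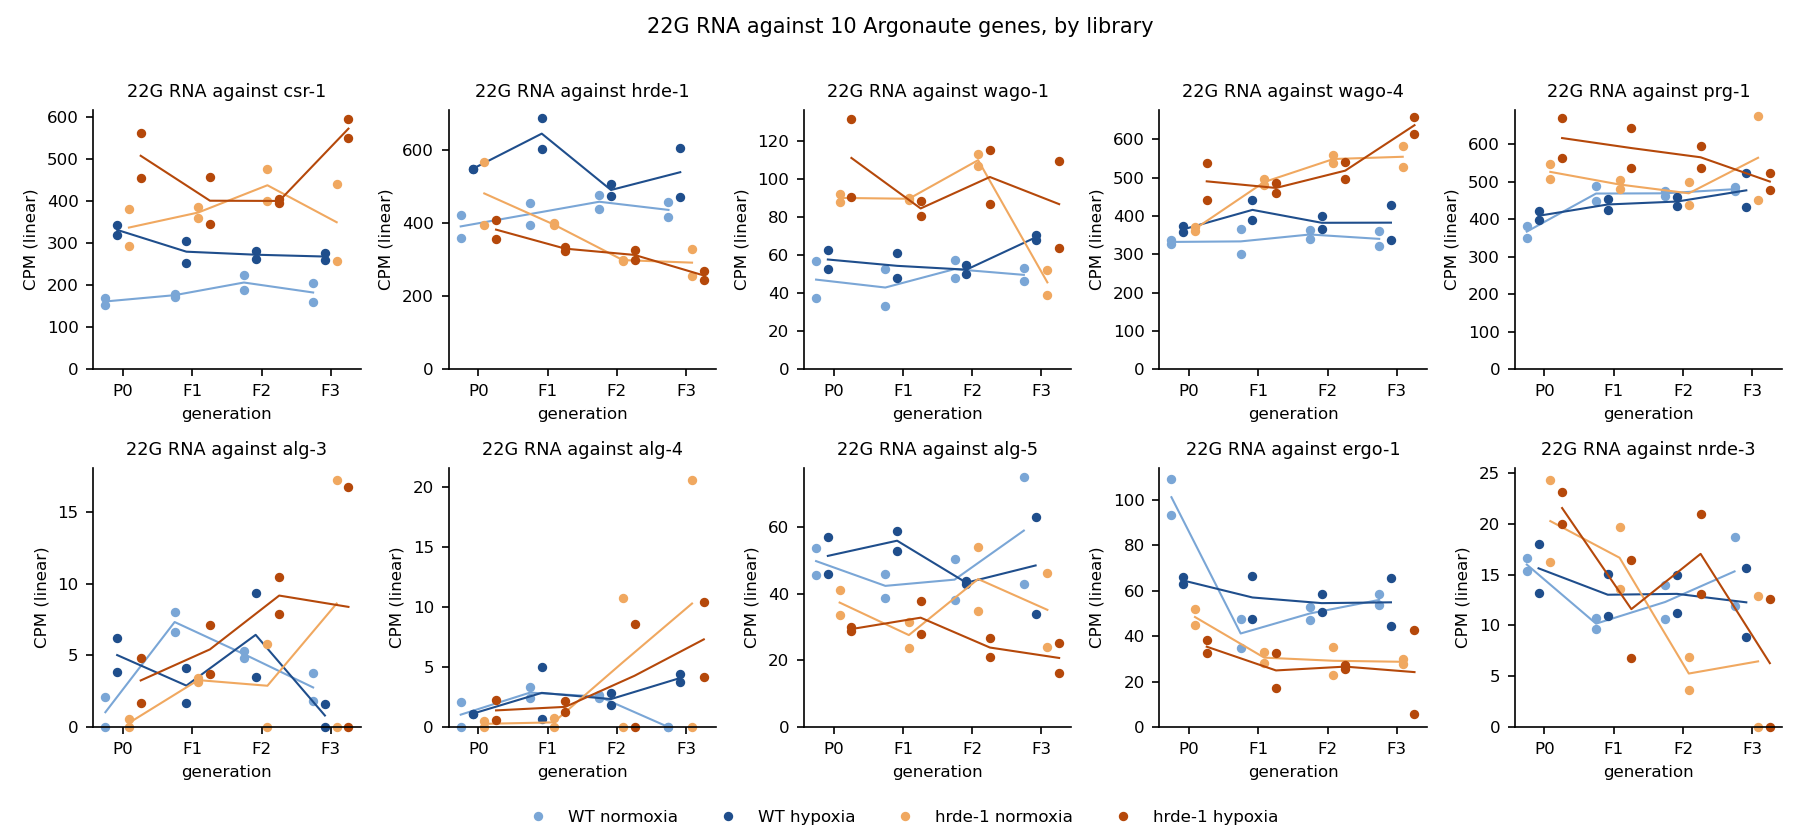
CPM of 22G RNA against each of the 10 Argonaute genes by generation (linear axes from 0, scaled per gene), 1 point per library, lines through the means of 2, coloured by genotype and oxygen label. The WT hypoxia points of csr-1 lie above the WT normoxia points at every generation, and its hrde-1 points lie above the WT points of the same oxygen label.

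The same comparisons were made in hrde-1 animals. For csr-1, P0 libraries held 381.6 and 292.2 CPM under normoxia and 561.3 and 454.1 CPM under hypoxia. At F1 they held 360.6 and 384.7 CPM against 456.6 and 345 CPM, and at F2 475.6 and 399.5 CPM against 394.8 and 405.7 CPM. At P0 both hypoxia libraries were above both normoxia libraries, and the labels overlapped at F1 and F2. At F3 normoxia gave 257.9 and 441.2 CPM and hypoxia 595.2 and 549.3 CPM, without overlap. The change was 0.23 ± 0.19 over F1 to F3 (adjusted p = 0.8507), where none of the 10 genes passed in edgeR, none had an unadjusted p under 0.05, and 0.176% of features passed. Averaged over P0 to F3, an average added after the values were seen, the csr-1 change was 0.32. That average did not pass in edgeR, where 10.4% of features did, and it passed with the DESeq2 test.

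At F3 in hrde-1 animals 2 of 10 genes passed, csr-1 by 0.71 ± 0.23 (adjusted p = 0.02779) and wago-1 by 0.94 ± 0.31 (adjusted p = 0.03211). At that generation 21.6% of all features passed and 15.2% passed as higher. The gene wago-1, a germline cytoplasmic Argonaute, was at 52.3 and 39 CPM under normoxia and at 109.7 and 63.9 CPM under hypoxia. The csr-1 call was lost without normoxia replicate 1 or either hypoxia library and the wago-1 call without normoxia replicate 2 or hypoxia replicate 1. The csr-1 change was 0.40 without normoxia replicate 1 and the wago-1 change 0.48 without hypoxia replicate 1. Neither passed when the 4 libraries were fitted alone, without the filter on low counts, or with scaling to all 4 small RNA classes, and csr-1 did not with DESeq2 size factors. No gene passed in edgeR at P0, F1 or F2 in hrde-1 animals, where 0.711%, 0.346% and 0% of features passed, while 2, 0 and 1 genes had an unadjusted p under 0.05.

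In hrde-1 animals 22G RNA against hrde-1 was not higher under hypoxia at P0 or F1. At P0 it was at 568.1 and 395.9 CPM under normoxia and at 409.8 and 355.7 CPM under hypoxia. At F1 it was at 400 and 394.1 CPM under normoxia and at 336 and 325 CPM under hypoxia. At F2 the values were 300.5 and 297.9 CPM against 326.6 and 300 CPM, and at F3 254.2 and 330.1 CPM against 268.9 and 245 CPM. Over P0 to F3 the hypoxia response in hrde-1 animals was -0.18 ± 0.10 (adjusted p = 0.2669), in a comparison where none of the 10 genes and 10.4% of features passed. The test of the difference between the P0 to F3 responses was added after the values were seen. The response in hrde-1 minus that in WT was -0.55 ± 0.14 (interaction in edgeR, adjusted p = 0.01987). This was the 1 interaction of the 10 genes to pass, where 5.2% of all features passed and 0.899% of all features passed as lower. It was lost without P0 hrde-1 normoxia replicate 1, F1 WT normoxia replicate 1, F1 WT hypoxia replicate 1 or F2 WT hypoxia replicate 2 (adjusted p up to 0.06744) and held without each of the other 28. It was also lost without the filter on low counts (adjusted p = 0.08593).

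The interaction for csr-1 was -0.35 ± 0.16 (adjusted p = 0.2377), so a difference in its hypoxia response between genotypes was not shown. The 95% interval runs from -0.66 to -0.03. In single generations no Argonaute gene passed the interaction, with 0.0593%, 0.0889%, 0% and 12% of features passing at P0, F1, F2 and F3. For hrde-1 at F1 it was -0.87 ± 0.27 (adjusted p = 0.375). At an unadjusted p under 0.05, 1, 1, 0 and 1 of the 10 genes passed it in edgeR. The median interaction over all features was 0.331 at F3 and 0.105 over P0 to F3.

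**Figure D3:**
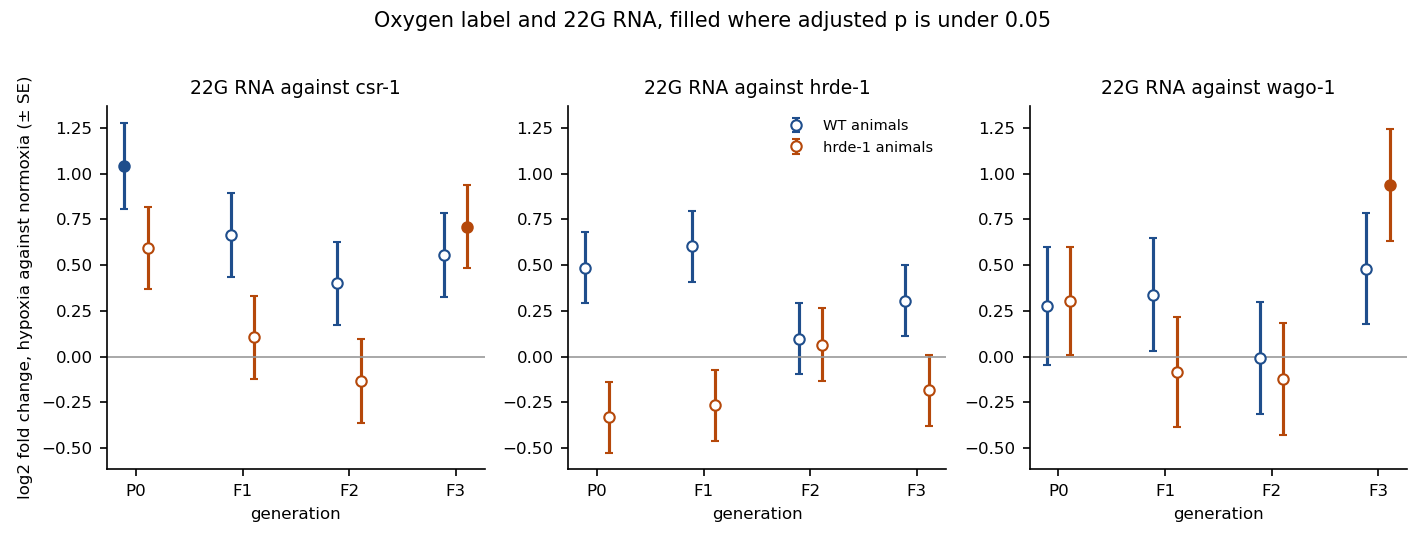
Log2 fold change of 22G RNA, hypoxia against normoxia, with its SE, for csr-1, hrde-1 and wago-1 by generation in WT (blue) and hrde-1 animals (orange), from 2 libraries against 2. The csr-1 values of WT lie between 0.40 and 1.04, and filled points, P0 WT for csr-1 and F3 hrde-1 for csr-1 and wago-1, passed an adjusted p of 0.05.

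The second question was whether the hrde-1 genotype changed 22G RNA against Argonaute genes. Across P0 to F3, 22G RNA against csr-1, wago-1 and wago-4 was higher in hrde-1 animals and that against ergo-1 lower, under both oxygen labels. Under hypoxia prg-1 was also higher and hrde-1 and alg-5 lower. Generation was a term, with 8 libraries against 8. Of the 10 genes 4 passed under normoxia, 3 higher and 1 lower, where 28% of features passed (11.7% higher, 16.3% lower). Under hypoxia 7 of 10 passed, 4 higher and 3 lower, where 38.1% of features did (18% higher, 20.1% lower).

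The csr-1 values under normoxia were 152.1, 176.1 and 224.4 CPM in WT (lowest, median and highest of 8) and 257.9, 383.2 and 475.6 CPM in hrde-1. Under hypoxia they were 253.3, 278.4 and 343.1 CPM in WT and 345, 455.4 and 595.2 CPM in hrde-1. Genotypes did not overlap under either label. The log2 fold change was 1.01 ± 0.14 under normoxia (adjusted p = 1.085e-05) and 0.71 ± 0.12 under hypoxia (adjusted p = 4.709e-05). Both calls held without any one of the 16 libraries and under all 8 other settings. The normoxia comparison and the WT hypoxia response above share the same 8 WT normoxia libraries, so the csr-1 rises in them are not separate evidence.

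For wago-1 the normoxia values were 33.43, 50.17 and 57.32 CPM in WT and 38.97, 89.6 and 113.2 CPM in hrde-1. Under hypoxia they were 47.74, 57.84 and 70.72 CPM and 63.88, 89.54 and 131.5 CPM. Ranges overlapped under both labels, through the low F3 libraries of hrde-1. The changes were 0.70 ± 0.20 (adjusted p = 0.0123) and 0.73 ± 0.15 (adjusted p = 0.0005344).

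For wago-4, the germline Argonaute of inherited silencing, normoxia gave 301.4, 338.2 and 365.8 CPM in WT and 360.8, 511 and 582.3 CPM in hrde-1. Hypoxia gave 336.7, 381.7 and 441.4 CPM in WT and 442.3, 517.2 and 659.4 CPM in hrde-1. The hypoxia ranges did not overlap, and the normoxia ranges met at a P0 hrde-1 library. The changes were 0.48 ± 0.12 (adjusted p = 0.003941) and 0.46 ± 0.11 (adjusted p = 0.002104).

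For prg-1 the normoxia values were 350.6, 468.2 and 488.8 CPM in WT and 438.8, 501.3 and 675.2 CPM in hrde-1, a change of 0.18 ± 0.12 that did not pass (adjusted p = 0.3018). Under hypoxia they were 397.3, 432.5 and 522 CPM and 476.2, 549.3 and 670.2 CPM. That change was 0.37 ± 0.11 (adjusted p = 0.00874), and it was lost without the P0 libraries, without the filter on low counts, and with scaling to all 4 small RNA classes, where it was 0.02.

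The hrde-1 gene itself under normoxia was at 358.9, 432 and 478.4 CPM in WT and at 254.2, 362.1 and 568.1 CPM in hrde-1 animals, a change of -0.28 ± 0.15 that did not pass (adjusted p = 0.1774). It did pass with DESeq2 and without the P0 libraries. Under hypoxia it was at 472.7, 549.1 and 689.3 CPM in WT and at 245, 325.8 and 409.8 CPM in hrde-1. Every hrde-1 library was below every WT library, and the change was -0.78 ± 0.11 (adjusted p = 6.836e-06), under all 8 other settings as well. The allele is not given, so whether part of the locus was absent as a template was not tested.

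The gene ergo-1, the 26G Argonaute of oocytes and embryos, was at 34.96, 53.18 and 109.1 CPM in WT and at 23.09, 31.43 and 52.12 CPM in hrde-1 under normoxia. Under hypoxia the values were 44.44, 60.83 and 66.41 CPM and 5.807, 30.09 and 42.61 CPM, without overlap. It fell by 0.83 ± 0.18 under normoxia (adjusted p = 0.001604) and by 1.03 ± 0.24 under hypoxia (adjusted p = 0.001746), on the log2 scale. The lowest value, 5.807 CPM, is that of F3 hrde-1 hypoxia replicate 2. With scaling to all 4 small RNA classes the directions of wago-1, wago-4 and ergo-1 were kept, but wago-1 (1.05 and 0.39 under normoxia and hypoxia) and wago-4 (0.87 and 0.11) no longer passed, nor did ergo-1 under normoxia (-0.41). The medians of all features were then 0.178 and -0.369. Under normoxia wago-1 and wago-4 were also lost without the filter on low counts, and wago-1 without the P0 libraries.

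The gene alg-5 was at 37.99, 45.72 and 74.79 CPM in WT and at 23.62, 34.06 and 54.05 CPM in hrde-1 under normoxia (-0.47 ± 0.22, adjusted p = 0.1272). Under hypoxia it was at 33.8, 49.24 and 63.02 CPM and at 16.26, 27.23 and 37.74 CPM. It fell by 0.88 ± 0.18 there (adjusted p = 0.0004241) and passed under all 8 other settings. The gene nrde-3 changed by -0.36 ± 0.57 under normoxia and by 0.01 ± 0.41 under hypoxia, with medians of 12.93 to 14.75 CPM in the 4 combinations of genotype and oxygen label. The intervals for nrde-3 are wide, from -1.48 to 0.76 and from -0.79 to 0.81.

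**Figure D4:**
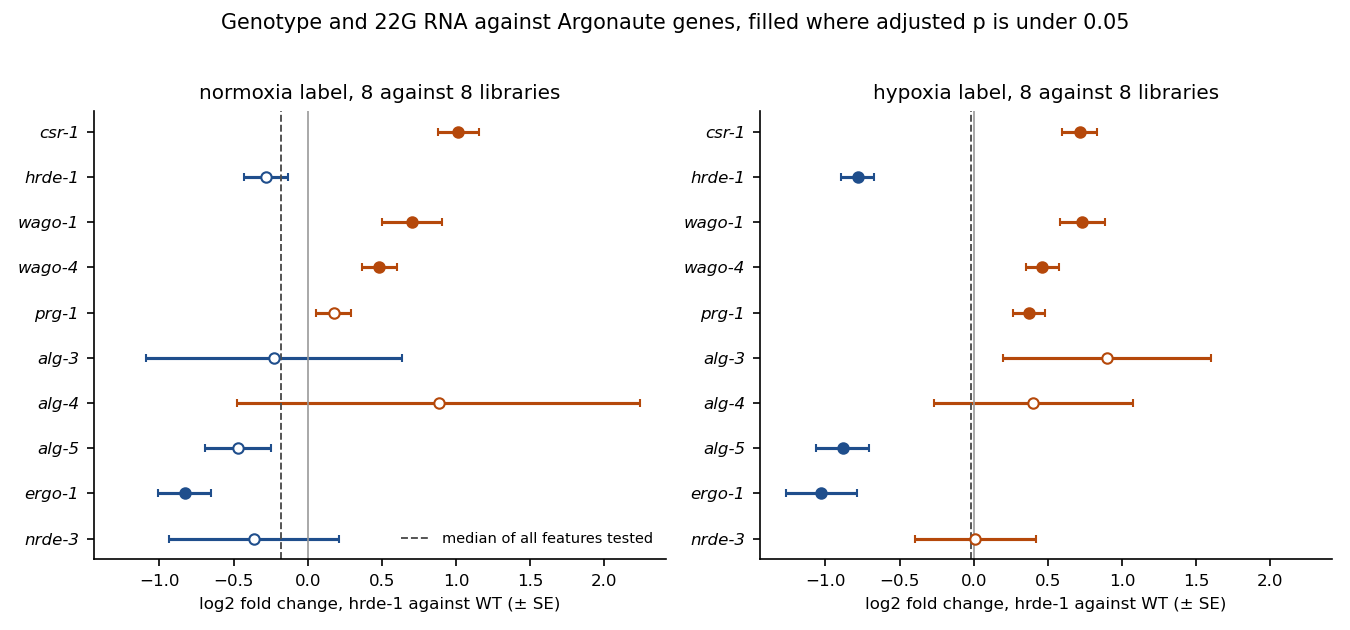
Log2 fold change of 22G RNA, hrde-1 against WT, with its SE, for the 10 Argonaute genes under the normoxia (left) and hypoxia label (right), 8 libraries against 8, filled where the adjusted p is under 0.05. Dashed lines mark the median of all features (-0.182 and -0.0208); csr-1, wago-1 and wago-4 are filled to the right and ergo-1 to the left in both panels.

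Sums of 22G RNA against sperm and oocyte marker genes differed between the genotypes in their medians. The summed level of 41 sperm marker genes had medians of 483.7 and 460.6 CPM in WT under normoxia and hypoxia, and of 154.2 and 173.3 CPM in hrde-1. It ran from 225.1 to 598.5 CPM in WT and from 50.76 to 285.1 CPM in hrde-1, and 2 of the 41 had no count in any library. Of 13 single sperm genes tested under normoxia, none was higher and 1 lower in hrde-1, and under hypoxia 7 of 12 were higher and 1 lower. The sum of 13 oocyte markers had medians of 664.3 and 762 CPM in WT and of 894.4 and 915.7 CPM in hrde-1, with ranges from 566 to 891.1 CPM and from 616.5 to 1282 CPM. Of 12 oocyte markers tested, 5 were higher in hrde-1 under normoxia, and 4 were higher and 2 lower under hypoxia. Of all features, 11.7% were higher and 16.3% lower in hrde-1 under normoxia, and 18% higher and 20.1% lower under hypoxia. Within WT the oocyte sum ran from 726.2 to 891.1 CPM under hypoxia and from 566 to 798.7 CPM under normoxia. Intestine markers had median sums of 31.42 to 43.37 CPM in the 4 combinations. The part of these markers in the Argonaute results was not tested.

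Ratios of counts within a library do not depend on scaling. They were taken to prg-1, the gene with the highest median count over all 32 libraries, a choice made after the values were seen. The csr-1 count was 0.3354 to 0.4852 of the prg-1 count in the 8 WT normoxia libraries (median 0.4042). In WT hypoxia it was 0.4992 to 0.8165 (median 0.6438). Oxygen labels did not overlap in WT by this ratio. In hrde-1 it was 0.382 to 0.9772 under normoxia (median 0.7572) and 0.5378 to 1.154 under hypoxia (median 0.823), so the genotypes overlapped. The hrde-1 count was 0.9056 to 1.623 of the prg-1 count in WT hypoxia and 0.5048 to 0.6333 in hrde-1 hypoxia. That ratio separated the genotypes fully under hypoxia. Ratios to prg-1 also carry any change in prg-1, which was itself higher in hrde-1 under hypoxia, by 0.37 on the log2 scale.

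**Figure D5:**
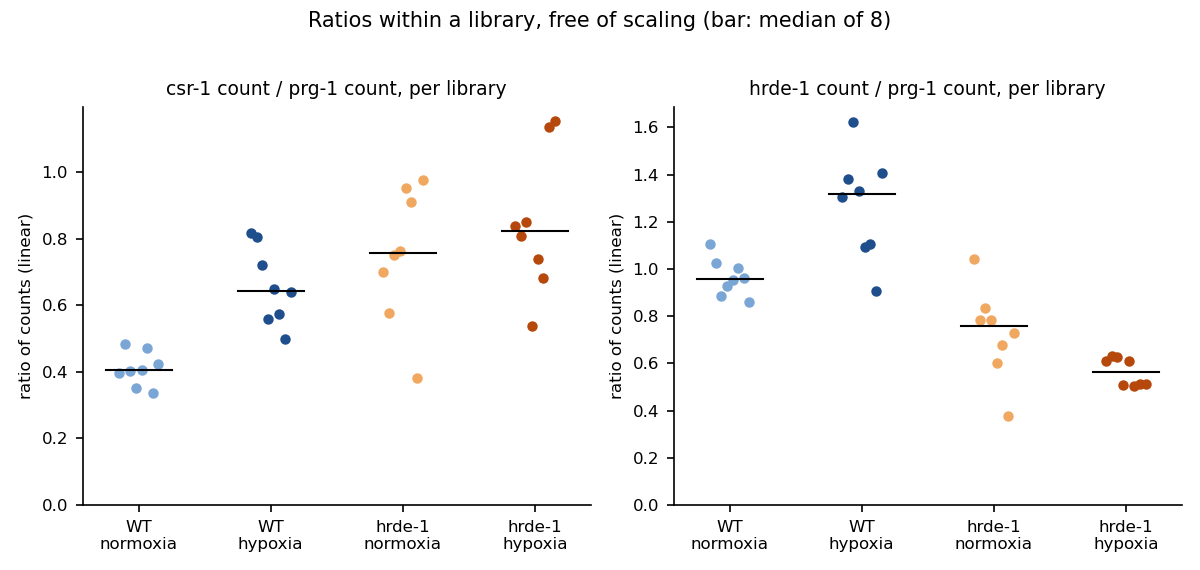
Count of 22G RNA against csr-1 (left) and hrde-1 (right) divided by that against prg-1 in the same library, by genotype and oxygen label, 1 point per library, bars at the median of 8. In the left panel all WT hypoxia points (0.4992 and above) lie above all WT normoxia points (0.4852 and below), and in the right panel all hrde-1 hypoxia points (0.6333 and below) lie below all WT points (0.8586 and above).

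The last comparison was among the 4 generations. In hrde-1 normoxia 3 of 10 genes differed among generations, where 20.2% of features did. Fitted means of hrde-1 spanned 0.72 on the log2 scale (adjusted p = 0.01832), from 568.1 and 395.9 CPM at P0 to 254.2 and 330.1 CPM at F3. This call was lost without P0 hrde-1 normoxia replicate 1, the highest library. Those of wago-1 spanned 1.26 (adjusted p = 0.02412), from 106.6 and 113.2 CPM at F2 to 52.3 and 39 CPM at F3, lost without F3 replicate 2. Those of wago-4 spanned 0.60 (adjusted p = 0.04156), from 360.8 and 371.6 CPM at P0 to 582.3 and 526.6 CPM at F3, lost without any one of the 8 libraries. None of the 3 passed when those 8 libraries were fitted alone.

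No Argonaute gene passed the edgeR test among generations in WT normoxia, WT hypoxia or hrde-1 hypoxia, where 3.05%, 2.31% and 4.82% of features did, and 1, 0 and 0 genes had an unadjusted p under 0.05. The closest in WT normoxia was ergo-1, at 109.1 and 93.4 CPM at P0 and 34.96 to 58.4 CPM at F1 to F3 (span 1.30, unadjusted p = 0.04641, adjusted p = 0.5202). Its P0 libraries are the 2 with the low 22G share. In the same libraries prg-1 was lowest, at 382.6 and 350.6 CPM against 447.2 to 488.8 CPM later (adjusted p = 1).

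Across the 32 libraries, log2 CPM of the members followed each other to different degrees. These correlations are descriptions over libraries that share depth, genotype and replicate effects. The strongest pairs were csr-1 with wago-4 (Pearson r = 0.812), alg-5 with ergo-1 (0.724) and csr-1 with wago-1 (0.704). The csr-1 and hrde-1 genes had r = -0.417 over all libraries, 0.764 within the 16 WT libraries and -0.155 within the 16 hrde-1 libraries. For hrde-1 and wago-4 the values were -0.693, 0.589 and -0.8. Both pairs were positive in WT and negative in hrde-1.

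Among 10121 features tested, those most like csr-1 were klp-7 (r = 0.94), a microtubule-depolymerising kinesin, and let-99 (r = 0.938), a spindle positioning gene. Those most like hrde-1 were unc-40, the netrin receptor, and sel-2 (both 0.83). For ergo-1 they were idhg-1 (0.875) and sel-2 again (0.865). For wago-1 they were msrp-7 (0.858) and set-26 (0.853), for wago-4 Y57A10A.31 (0.898) and W08E3.4 (0.891), and for prg-1 seld-1 (0.897) and popl-5 (0.826). For nrde-3, with a median count of 19 and no count in 2 libraries, they were skr-21 (0.908) and sms-2 (0.884). All 3 genes are on the X chromosome, and the share of tested features on X was not counted. For alg-5 they were Y2H9A.6 (0.783) and cdk-14 (0.782). The values for alg-3 (lsm-5, 0.728; Y50C1A.2, 0.718) and alg-4 (WBGene00009846, 0.774; mpz-3, 0.727) rest on counts near 0.

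Of 10 other Argonaute genes found in the table, 9 were tested in the fit of 32 libraries. The gene ppw-2, a germline WAGO-class Argonaute, rose under hypoxia at F3 in hrde-1 animals by 1.39 ± 0.20 (adjusted p = 3.214e-05), and the F3 interaction was 1.07 ± 0.27 (adjusted p = 0.01167). It was also higher in hrde-1 than in WT under hypoxia by 0.55 ± 0.12 (adjusted p = 0.0008057). At F3 in hrde-1 vsra-1 passed as higher as well, by 5.23 ± 1.81 (adjusted p = 0.04108). Among generations, ppw-2 (span 1.15, adjusted p = 0.001042) and vsra-1 (6.94, adjusted p = 0.02512) passed in hrde-1 normoxia and ppw-1 (1.56, adjusted p = 0.04079) in hrde-1 hypoxia. Of all features, 21.6% passed at F3 in hrde-1, 12% passed the F3 interaction and 38.1% passed between genotypes under hypoxia. Among generations 20.2% passed in hrde-1 normoxia and 4.82% in hrde-1 hypoxia. With the compared libraries fitted alone, 0 features passed at F3 in hrde-1 and 2 among hrde-1 normoxia generations. None of these other Argonaute genes passed a hypoxia comparison in WT.

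Of 48 genes for small RNA partners (22G and 26G makers, nuclear RNAi, piRNA and germ granule factors), 46 were tested. Over F1 to F3 in WT 1 passed as higher, where 4.63% of all features passed and 1.38% passed as higher. The list median was 0.156 against -0.0132 over all features. At F3 in hrde-1 10 rose and 1 fell under hypoxia, where 21.6% of all features passed and 15.2% passed as higher (median 0.228 against 0.0891). Between genotypes 8 were higher and 3 lower in hrde-1 under normoxia, where 28% of features passed (median -0.0501 against -0.182). Under hypoxia 8 were higher and 8 lower, where 38.1% passed (median -0.026 against -0.0208). Taken without direction, these shares of the 46 partners are near those of all features. By direction they differ under normoxia, where more partners were higher than lower. Of all features, 11.7% were higher and 16.3% lower there, and 18% were higher and 20.1% lower under hypoxia. Whether the partners differ from other features was not tested.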

How the data were processed

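Small RNA of whole worms was sequenced as 85 bp reads, after RppH treatment of 500 ng RNA, per the labels. Per the submitters' processing notes, the authors used FastQC, cutadapt 2.5, featureCounts and edgeR. Aligner, build, annotation and strand setting are not given in the sources used here. Counts of overlapping genes or of antisense partners may therefore hold each other's reads. The values deposited by the authors are counts per gene, whole numbers in all but the F2 WT normoxia libraries. In the F2 WT normoxia libraries 24.45% and 23.6% of the deposited values are multiples of 1/3, and these expected counts were rounded. The table also holds 5 summary entries, left out of library sizes and tests: reads with no feature came to 16.4% to 25.5% of a library's table total, and ambiguous reads to 3.09% to 3.60%. Of the features, 46919 matched WBcel235 identifiers and 23976 had no count.

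Counts were tested with edgeR 4.0.16 (quasi-likelihood F test, robust glmQLFit, TMM, filterByExpr with a minimum count of 10) in R 4.3.3, with Benjamini-Hochberg adjustment over all features tested and a threshold of 0.05. Single generations, interactions, generation tests and averages over P0 to F3 came from 1 fit of 16 group means over 32 libraries. The averages over P0 to F3 and their interaction were added after the values were seen. Comparisons over F1 to F3 and between genotypes had generation as a term. CPM used TMM-scaled library sizes. The script was tested on simulated data. Alternatives were DESeq2 1.42.0 and its size factors, scaling to all 4 small RNA classes, no filter, rounding down, a replicate block, the compared libraries alone, leaving out generations and leaving out each library. Named genes were the 10 Argonautes in every comparison, up to 6 other Argonautes past the threshold, and the 2 features most correlated with each member over the libraries. The members, lists and tests were chosen with earlier results of these data known.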

Additional observations from a re-analysis of the deposited data

Results flagged for a closer look

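Stray values were searched for in 80 sets of 6 or 8 libraries of one genotype and oxygen label, where chance marks about 1 in 20. 22G RNA against hrde-1 was 568.1 CPM in P0 hrde-1 normoxia replicate 1, and the next of the 8 libraries was at 400 CPM. The F3 hrde-1 normoxia replicate 1 library was high for prg-1, at 675.2 CPM against 545.5 CPM for the next of 8 and 503.9 CPM for the next of 6 descendants. It was also high for alg-3, at 17.2 CPM against 5.76 CPM for the next, and its replicate had no alg-3 count. For prg-1, F3 WT hypoxia replicate 1 was at 522 CPM against 459.8 CPM for the next of 6. For alg-5, F3 WT normoxia replicate 2 was at 74.8 CPM against 53.8 CPM for the next of 8 and 50.3 CPM for the next of 6.

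The hypoxia response differed between genotypes for hrde-1 over P0 to F3, by -0.55 in hrde-1 minus WT (edgeR interaction, adjusted p = 0.01987). That interaction was added after the values were seen, and it was lost without the filter on low counts. It was also lost without some single libraries, among them P0 hrde-1 normoxia replicate 1, marked above as high for hrde-1. With 2 libraries against 2, full separation in opposite directions also arises by chance. Its share among all features was not counted. For hrde-1 at F1 (-0.87, adjusted p = 0.375) and prg-1 at F2 (0.34, adjusted p = 0.9128) every library of one genotype moved one way and every library of the other the opposite way, and neither passed the interaction test. The same was marked for alg-3 at F1 (2.0003, adjusted p = 1), on 2 to 12 counts per library, too few for a direction.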

How the results depend on the processing

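For the 10 genes, 229 pairs of gene and comparison were recomputed under 3834 alternatives, of which 54 passed the threshold where the reported value did not and 69 no longer passed. Where a call changed the cause was not tested. Scaling to the total of all 4 small RNA classes moved most: the median of all features became 2.7 at P0 in WT and -2.32 in the P0 interaction. Before that median is subtracted, ergo-1 became 2.02 and nrde-3 2.63 at P0 in WT, and wago-1, wago-4, prg-1 and ergo-1 became -2.22, -2.01, -2.22 and -2.09 in the interaction. Over P0 to F3 in WT prg-1 became 0.82 and ergo-1 0.80, with a median of 0.794. All 8 changed sign as they stand, but relative to the median of all features 7 kept their sign (ergo-1 at P0 in WT was -0.70 in the reported fit and -0.68 here), the exception being ergo-1 over P0 to F3 (-0.01 and 0.01). The number of genes passing became 9 at P0 in WT, 0 at F3 in hrde-1, 7 in the P0 interaction, 7 over P0 to F3 in WT, 4 in that interaction, 6 among WT normoxia generations, 1 among hrde-1 normoxia generations and 2 over F1 to F3 in WT. Between genotypes it became 1 under normoxia (csr-1) and 4 under hypoxia, with medians of 0.178 and -0.369.

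With DESeq2 size factors the number became 0 at P0 in WT, 1 at F3 in hrde-1 and 1 over P0 to F3 in WT. Without a filter it became 0 at F3 in hrde-1, 1 over P0 to F3 in WT, 0 for that interaction, 1 among hrde-1 normoxia generations (alg-4), 2 over F1 to F3 in WT and 2 between genotypes under normoxia. With DESeq2 it became 1 over P0 to F3 in hrde-1 (csr-1), 1 among hrde-1 hypoxia generations (wago-4) and 2 over F1 to F3 in WT, and it was 0 in every other comparison in which edgeR called no gene. With the compared libraries alone it became 3 at P0 and 2 at F1 in WT, 0 at F3 in hrde-1, 1 for the F1 interaction, 1 among WT normoxia and 0 among hrde-1 normoxia generations. Leaving out 1 library gave 0 to 0 genes at P0 in WT, 1 to 3 at F3 in hrde-1, 0 to 3 for its interaction, 1 to 2 over P0 to F3 in WT, 0 to 2 in hrde-1, 0 to 2 for that interaction, 1 to 4 and 0 to 1 among hrde-1 normoxia and hypoxia generations, 1 to 2 over F1 to F3 in WT, and 4 and 7 between genotypes. The replicate block kept each count: it gave 1 gene at P0 in WT, 1 over F1 to F3 in WT, and 4 and 7 between genotypes. Within a generation, same-numbered replicates did not deviate together between oxygen labels or genotypes (r from -0.0376 to 0.0413). Pairing of the numbers across generations was not checked. Rounding down and leaving out P0 or F3 moved no count by over 1.5 times.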
